A study of Mus musculus with 12 samples.

Results

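Livers of mice injured with acetaminophen (APAP, paracetamol) and then given human macrophages were compared with livers of uninjured mice by bulk RNA sequencing, in which RNA of all cells in a tissue sample is read together. The comparison was defined by the sample labels and held 7 of the 12 libraries of the series, 4 from hAAM-treated and 3 from control mice, with the 22581 of 24187 genes that passed a filter on low counts. The question was which liver functions remained changed after macrophage therapy and how far the 4 treated livers differed from each other. Control mice were uninjured and untreated. The hAAM-treated mice received APAP, which the labels give as 350 mg/kg, and hAAMs. These cells are human alternatively activated macrophages, made from CD14+ blood monocytes by culture with CSF1 and then IL-4 and IL-13, and stored frozen. According to the methods of the study, mice of 10 to 12 weeks, named once as C57BL/6J and once as C57BL6/JOlaHsd, were fasted for 12 h before APAP, and 1000000 cells in its high-dose arm were injected into the tail vein 16 h after APAP. The text of the study also names a higher APAP dose and more than 1 time of collection, so the dose and the time for these livers are uncertain. The 5 vehicle-treated mice of the series, which received the same APAP and a PBS vehicle, were used for the shared estimate of the spread and for values placed beside those of the hAAM-treated mice. The labels call the controls untreated and do not say whether they were fasted or injected. The methods of the study also name a saline injection after fasting in place of APAP, but do not say whether these controls received it. Any effect of fasting or injection therefore cannot be told apart from that of injury. Reads were aligned to the mouse genome alone, so transcripts of the human cells were not counted as such.

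APAP is activated by cytochrome P450 enzymes, mainly in the hepatocytes around the central vein, to a reactive product that glutathione normally captures. When glutathione runs out, proteins are modified, mitochondria fail and the pericentral hepatocytes die, after which macrophages clear the debris and surviving hepatocytes divide. Alternatively activated macrophages are known for taking up dead cells and for low output of inflammatory cytokines. In bulk tissue, fewer cells of a type and less RNA per cell cannot be told apart.

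Total counts were 60870399 to 74056505 in control and 47391650 to 55379420 in hAAM-treated livers, the 10 most abundant genes took 18.9% to 20.9% of each library of the series, and the Y-linked gene Ddx3y, added after its values were seen, had 3064 to 4281 counts in each of the 7 livers. Albumin (Alb), the main secreted protein of hepatocytes, was at 35700 to 61820 CPM in control and 48990 to 70200 CPM in treated livers (CPM, counts scaled to a common library size after edgeR's TMM factors). hAAM replicate 4 and vehicle replicate 3 stood apart as a pair. Their counts differed by 1.20 times counting noise, against 2.55 to 8.01 times for other pairs of livers, although their labels place them in different groups. hAAM replicate 4 may therefore not be a separate hAAM-treated liver, which bears on each of its values and on the comparison of hAAM with vehicle. Both were kept as labelled, and without both the comparison called 4412 genes in place of 4666.

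Among the gene lists described here, 14 of 22 recruited macrophage markers and 10 of 20 annexins and S100 proteins rose in the treated livers, while 16 of 28 acute-phase proteins and 14 of 23 pericentral genes fell. With edgeR's quasi-likelihood test and the Benjamini-Hochberg false discovery rate (FDR), 4666 genes passed an FDR of 0.05, which is 20.7% of those tested. Of these, 2418 were higher (10.7%) and 2248 lower (9.96%) in hAAM-treated livers, so that 51.8% of the calls were higher. Scaled by library size alone, 7340 genes were called and 89.4% of them were higher (29% of all tested genes higher and 3.46% lower), and under that scaling the median over all genes was 0.32 on the log2 scale, against 0.016 with TMM factors. The medians of the 52 gene lists were likewise 0.24 to 0.37 higher under that scaling, so each list count given for it is to be read against these shares. More than 2-fold changes were found in 1209 of the higher and 584 of the lower genes, and more than 8-fold changes in 106 and 50. The treated and control livers did not overlap in 6442 genes (28.5%). Control replicates 1 and 3 and hAAM replicates 1 and 2 carried much of the count, which was 3027, 2419, 2799 and 2942 when each was left out in turn. Of the 4666 genes, 1854 (39.7%) were called in each of the 12 fits that left out 1 liver. Nothing in the labels ties the livers beyond 1 mouse each, so p-values measure the spread between these samples.

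The largest rises included genes of macrophages, matrix and proteolysis, beside a pair of glutathione transferases. Chil3 (ENSMUSG00000040809, chr3:106147554-106167564 of GRCm38), a chitinase-like protein secreted by macrophages, was at 1.05, 0.551 and 0.356 CPM in control replicates 1 to 3 and at 43.1, 36.4, 17.0 and 17.2 CPM in hAAM replicates 1 to 4. Gpnmb (ENSMUSG00000029816, chr6:49036546-49070929), a glycoprotein of lipid-laden macrophages, was at 1.58, 0.503 and 0.178 CPM in control livers and at 34.2, 18.9, 59.2 and 17.7 CPM in the treated livers. All 4 treated livers were above all controls for both genes, with replicate 1 highest for Chil3 and replicate 3 for Gpnmb. Their log2 fold changes were 5.45 (SE 0.58, FDR 2.2e-04) and 5.43 (SE 0.68, FDR 5.7e-04). Mmp12, the macrophage elastase, rose by 5.09 on the log2 scale, the cell-surface protein Ly6d by 4.71 and the matrix glycoprotein Tnc (tenascin C) by 4.16. Adam8, a membrane protease of leukocytes, rose by 3.85, the coagulation factor subunit F13a1 by 3.75 and tissue plasminogen activator (Plat) by 3.70. Gsta1 and Gm3776, near-identical glutathione transferase genes whose reads can be exchanged, rose by 4.14 and 4.57. In 9 of these 10 genes replicate 3 was not the highest treated liver, and for Ly6d it was at 2.54 CPM against 12.4 to 27.0 CPM in the other treated livers.

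The largest falls included secreted proteins of the hepatocyte. Saa3 (ENSMUSG00000040026, chr7:46711998-46715700), an acute-phase serum amyloid, was at 209, 188 and 176 CPM in control livers and at 3.44, 8.46, 9.06 and 2.02 CPM in the treated livers, a log2 fold change of −5.06 (SE 0.49, FDR 1.4e-04). Its neighbours Saa2 and Saa1, which are close copies and can exchange reads, changed by −4.69 and −3.89. The controls themselves ranged from 1893 to 9545 CPM for Saa2, and the treated livers from 90.7 to 544 CPM. Tifa (ENSMUSG00000046688, chr3:127789805-127832164), an adaptor of TRAF6 signalling, was among the most uniform, with 101 to 128 CPM in control and 6.83 to 10.8 CPM in treated livers (log2 fold change −3.72, SE 0.21, FDR 3.8e-06). Mup19, Mup9 and Mup16, major urinary proteins of a near-identical family, changed by −3.37, −3.18 and −3.16. Mup20, a far more abundant gene of the family, was at 3474 to 4323 CPM in control and 2648 to 3311 CPM in treated livers and did not pass the test (log2 fold change −0.45, FDR 0.22). The other members of the largest falls were Glul, Slc1a2 and Tbx3, which belong to the pericentral zone.

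**Figure D1:**
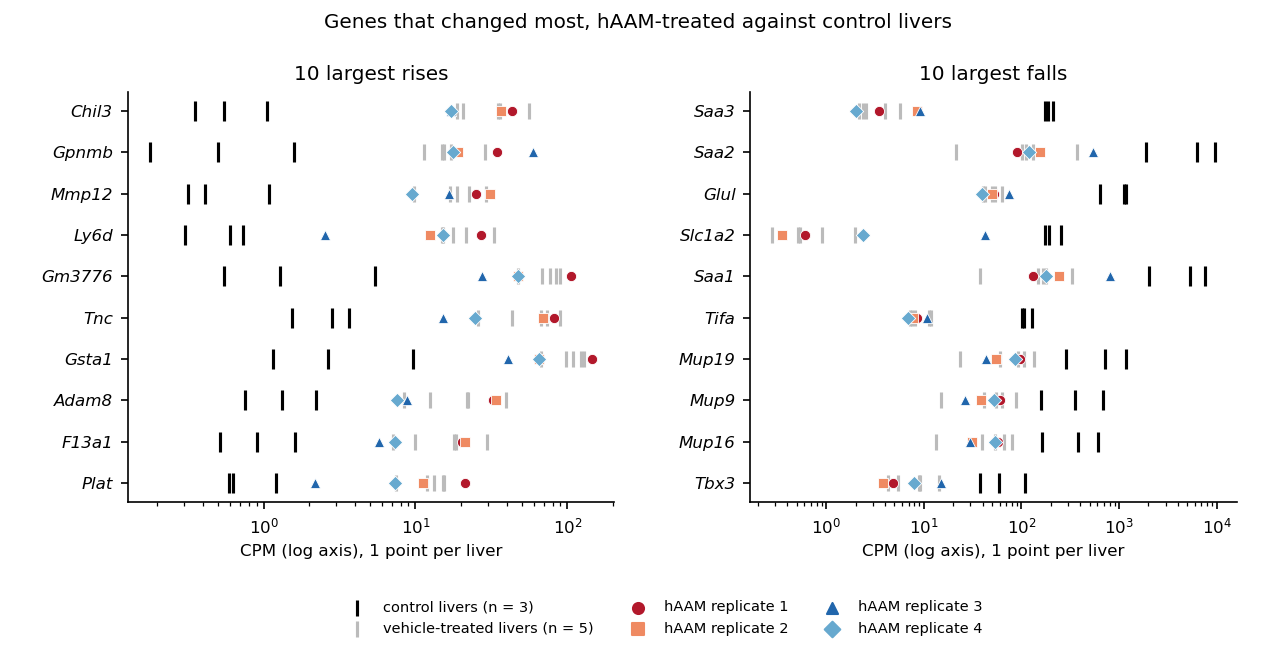
CPM on a log axis in each control (3, black), hAAM-treated (4, coloured by replicate) and vehicle-treated (5, grey) liver for the 10 largest rises and the 10 largest falls among called protein-coding genes whose treated and control livers did not overlap, with 1 point per liver. The separation of the groups was part of the choice of these genes, and Slc1a2 has 1 treated liver at 42.9 CPM against 0.352 to 2.37 CPM in the other 3.

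Pericentral genes remained low after macrophage therapy. Of 23 pericentral genes, which are the enzymes and WNT targets of the hepatocytes around the central vein, 14 fell and 0 rose, with a median log2 fold change of −1.44 against 0.016 over all genes tested. Glul (ENSMUSG00000026473, chr1:153899944-153909723), glutamine synthetase of the innermost hepatocyte ring, was at 1113, 636 and 1168 CPM in control livers and at 52.0, 49.5, 75.4 and 39.9 CPM in the treated livers. The groups were far apart, and the log2 fold change was −4.17 (SE 0.27, FDR 1.4e-05). Oat, an ornithine aminotransferase of the same ring, was at 308 to 484 CPM in control livers and at 43.7, 30.7, 125 and 33.2 CPM in the treated livers (log2 fold change −2.73). Slc1a2 (ENSMUSG00000005089, chr2:102658659-102790784), a glutamate transporter, was at 190, 173 and 252 CPM in control livers and at 0.605, 0.352, 42.9 and 2.37 CPM in the treated livers. Replicate 3 alone kept an appreciable level, and the log2 fold change of −4.15 (SE 1.22, FDR 0.032) became −7.53 without it (FDR 2.9e-04), while the call was lost without any 1 of control replicates 1 to 3 or hAAM replicates 1, 2 and 4. Tbx3, a transcription factor of the pericentral WNT program, fell by 3.12 on the log2 scale. Among the WNT receptors and feedback genes, picked here after their values were seen, Lgr5 changed by −2.04 and Axin2 by −1.83, and both were called. Cyp2e1, the main enzyme of APAP activation, was at 3992, 2555 and 3750 CPM in control livers and at 342, 322, 2464 and 1293 CPM in the treated livers. Replicates 1 and 2 were far below control and replicate 3 was close to it, and the gene did not pass the test (log2 fold change −1.64, FDR 0.11).

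Of 26 periportal and urea cycle genes, which belong to the opposite zone, 2 rose and 1 fell, with a median log2 fold change of 0.081. With library size alone 6 rose and 0 fell (median 0.37), where 29% of all tested genes rose. Sds (serine dehydratase) rose by 1.54 and the lipid droplet enzyme Hsd17b13 by 0.55, while Nags, which makes the activator of the urea cycle, fell by 0.52. The count of rises became 0 without control replicate 1 or 3 and 1 without hAAM replicate 2. Cps1, the first enzyme of the urea cycle and the most abundant of the list, was at 3614 to 4869 CPM in control and 3223 to 7177 CPM in treated livers and overlapped between the groups (log2 fold change 0.13, FDR 0.80). Of 23 transcription factors and nuclear receptors that define hepatocytes, 8 fell and 0 rose (median −0.35). Prox1 fell by 1.02 and Onecut2 by 1.08, and both were lowest in hAAM replicates 1 and 2. Hnf4a, the central factor of hepatocyte identity, was at 780 to 849 CPM in control and 617 to 720 CPM in treated livers, a log2 fold change of −0.29 that did not pass the test (FDR 0.10). With library size alone, 3 members of this list rose and 5 fell, and its median was −0.051. Of 18 general hepatocyte markers, 1 rose and 1 fell (median −0.065, or 0.23 with library size alone), and the rise was lost without control replicate 1 or 3 or hAAM replicate 1.

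Drug metabolism was reduced in part and varied strongly between the treated livers. Of 45 cytochromes P450 of families 1 to 3, which oxidise drugs and steroids, 9 fell and 2 rose (median −0.75). The mean change of the list from control was −1.45 and −1.64 in hAAM replicates 1 and 2, −0.48 in replicate 4 and −0.037 in replicate 3. In the vehicle-treated livers it was also wide, at −1.98 to −0.50. Cyp2c70 was at 644 to 844 CPM in control livers and at 283, 230, 316 and 209 CPM in the treated livers (log2 fold change −1.51), and Cyp2c67 fell by 1.76 and Cyp2c40 by 1.45. Without hAAM replicate 3 the list had 16 falls, without hAAM replicate 1 it had 3, and without hAAM replicate 2 or control replicate 1 or 3 it had 4. Of 48 conjugation enzymes, which attach sulfate, glucuronate, methyl groups or glutathione, 10 fell and 2 rose (median −0.36). Ugt2b1, a glucuronosyltransferase, fell by 2.16, and the rises were Gsta1 and Gstm5, the latter named after its value was seen. The count of falls was 5 without control replicate 1 and 6 without control replicate 3 or hAAM replicate 2, and library size alone gave 6 rises and 6 falls.

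Targets of NRF2, the factor that answers electrophiles such as the APAP product, moved in both directions with TMM factors. Of 28 NRF2 targets and glutathione supply genes, 8 rose and 3 fell (median 0.080), against 13 rises and 1 fall (median 0.38) with library size alone. Srxn1, sulfiredoxin, which repairs oxidised peroxiredoxins, was at 21.5 to 25.4 CPM in control livers and at 73.4, 57.2, 33.0 and 58.7 CPM in the treated livers. All treated livers were above control with replicate 3 lowest, and the log2 fold change was 1.26 (SE 0.25, FDR 0.0059). Abcc4, an efflux pump, rose by 1.22 and the ferritin chain Fth1 by 0.49, while Osgin1, an oxidative stress growth inhibitor, was at 281 to 345 CPM in control and 55.7 to 155 CPM in treated livers and fell by 1.81. The count of rises was 4 without hAAM replicate 1 or control replicate 2 or 3, and 5 without hAAM replicate 2. The promoters of 25 of these genes were found in RefSeq for GRCm38.p6, as 250 bases before to 50 after the start of the gene. The antioxidant response element core TGACNNNGC, searched on both strands, was in 10 of the 25 (40%, 4 of the 8 called higher with a promoter entry) and in 2120 of 12786 tested genes with an entry (16.6%). The lists were written from textbook knowledge of these genes, so a share above that of all genes was partly built in. This holds for each motif count given here, none of which is a result about the change after injury. The promoter of Srxn1, at chr2:152105274-152105573 on the plus strand, is shown as that of the called member with the largest rise that has 1 promoter entry and a match, with the match in capitals.
Srxn1: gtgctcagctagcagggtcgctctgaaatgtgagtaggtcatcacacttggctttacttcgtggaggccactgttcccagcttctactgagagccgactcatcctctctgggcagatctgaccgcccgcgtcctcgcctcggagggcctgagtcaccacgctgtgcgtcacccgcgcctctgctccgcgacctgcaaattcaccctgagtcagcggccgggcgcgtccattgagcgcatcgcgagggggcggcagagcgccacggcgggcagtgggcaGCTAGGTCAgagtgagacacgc
Beside these, 6 of 10 metallothionein and zinc transport genes fell and 0 rose (median −0.63). Slc39a14, a zinc and manganese importer, was at 593 to 660 CPM in control and 266 to 356 CPM in treated livers (log2 fold change −0.998, SE 0.118, FDR 4.0e-04), Slc30a10, a manganese exporter, fell by 1.55, and Mt1 and Mt2 fell by 1.21 and 1.17. The count was 2 without control replicate 2 or 3.

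Genes of lipid synthesis fell in part. Of 22 lipogenesis genes, 9 fell and 1 rose (median −0.87). Scd1, the stearoyl-CoA desaturase and the most abundant member, was at 11250, 6497 and 7003 CPM in control livers and at 1154, 666, 1009 and 2236 CPM in the treated livers (log2 fold change −2.70, FDR 0.027). Acacb, an acetyl-CoA carboxylase, fell by 2.55 and the fatty acid elongase Elovl3 by 2.64. Of 25 cholesterol synthesis and LDL uptake genes, 5 fell and 0 rose (median −0.43, or 2 falls and −0.14 with library size alone), with Tm7sf2 at −1.06 and Mvd at −1.37. That count was 2 without vehicle replicate 1, hAAM replicate 1 or 2, or control replicate 2 or 3, and 3 without vehicle replicate 2. Of 28 genes of bile acid synthesis and transport, 7 fell and 2 rose (median −0.24), while with library size alone 3 fell and 5 rose (median −0.0013). Cyp7b1, an oxysterol hydroxylase, was at 125 to 324 CPM in control and 35.97 to 85.5 CPM in treated livers (log2 fold change −1.96), the bile salt export pump Abcb11 fell by 1.29, and the uptake carrier Slco1a4 rose by 1.75. The falls numbered 2 without any 1 control liver or without hAAM replicate 1 or 2.

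The counts for fatty acid oxidation and for nuclear subunits of the respiratory chain were near the 9.96% of all tested genes called lower. Of 40 genes of oxidation and ketogenesis, 4 fell and 1 rose (3 and 2 with library size alone), and the median of −0.17 became 0.12 with library size alone. The mean change of the list was −0.76 and −0.65 in hAAM replicates 1 and 2 but 0.055 and 0.50 in replicates 3 and 4. Ppargc1a, a coactivator of oxidative genes, rose by 1.54. Cyp4a12a and Cyp4a12b, close copies, fell by 1.56 and 1.66. The falls numbered 0 without control replicate 1 or 3 or hAAM replicate 1 or 2, 2 without vehicle replicate 1 and 1 without vehicle replicate 2. For the 73 nuclear subunits of oxidative phosphorylation, 8 fell and 0 rose, and the median of −0.19 turned to 0.096 with library size alone, where 5 rose and 0 fell. Ndufs6, Cox6a1 and Sdha, subunits of complexes I, IV and II, fell by 0.40, 0.48 and 0.49. Their count was 20 without hAAM replicate 3, 5 without control replicate 2 and 3 without control replicate 1 or hAAM replicate 1 or 2.

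Transcripts of the mitochondrial genome fell as a block. All 13 protein-coding genes of mitochondrial DNA, which encode core subunits of the respiratory chain, were called lower, with a median log2 fold change of −0.55. mt-Co2 was at 3707, 3929 and 4019 CPM in control livers and at 2430, 2426, 2580 and 3024 CPM in the treated livers, a log2 fold change of −0.57 (SE 0.13, FDR 0.011). mt-Nd2 changed by −0.68, mt-Nd6 by −0.57 and mt-Co1, the most abundant, by −0.57. The mean change of the list was −0.69, −0.71 and −0.53 in hAAM replicates 1 to 3 and −0.27 in replicate 4. These genes are transcribed together, so their number adds little. The calls depended on the scaling and on single livers. With library size alone, 0 of the 13 were called and the median was −0.25, and the 13 falls became 8 without control replicate 1, 5 without control replicate 2 or hAAM replicate 1 or 2, 3 without control replicate 3 and 2 when only the 7 livers were fitted. In vehicle-treated livers, 2 of the 13 fell (median −0.28), a share near that of all tested genes, of which 3339 of 22581 were called lower there. Between hAAM-treated and vehicle-treated livers 0 passed the FDR, and 4 were lower at an unadjusted p under 0.05, which 5.02% of all tested genes passed in either direction.

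Acute-phase proteins and complement and coagulation factors, which the liver secretes into plasma, were lower as lists. Of 28 acute-phase proteins, 16 fell and 0 rose (median −0.90, or 12 falls, 2 rises and −0.60 with library size alone), and the mean change was −1.38, −1.08, −0.99 and −1.59 in hAAM replicates 1 to 4, a fall in each liver. Haptoglobin (Hp), which binds free haemoglobin, was at 6763, 12440 and 13030 CPM in control livers and at 4814 to 6535 CPM in the treated livers (log2 fold change −0.92). Lcn2, an iron-binding acute-phase protein, overlapped between the groups at 294 to 1054 CPM and 234 to 1012 CPM. The count was 9 without control replicate 3. Of 48 complement and coagulation genes, 19 fell and 1 rose (median −0.51), against 11 falls and 2 rises (median −0.23) with library size alone. Mbl1 (ENSMUSG00000037780, chr14:41151458-41159601), a mannose-binding lectin that starts the lectin pathway, was at 231, 254 and 297 CPM in control livers and at 89.2, 89.5, 119 and 108 CPM in the treated livers (log2 fold change −1.36, SE 0.18, FDR 7.5e-04). C6, part of the membrane attack complex, fell by 1.42 and the fibrinogen chain Fgb by 0.99. C3, the most abundant complement gene, was at 15250 to 26880 CPM in control and 10570 to 18520 CPM in treated livers, overlapped and did not pass the test (FDR 0.055). The rise was C5ar1, a receptor of phagocytes, whose groups overlapped and which was called in 5 of the 12 fits without 1 liver. Without hAAM replicate 3 the falls numbered 30, without hAAM replicate 2 or control replicate 3 they numbered 11, and without control replicate 2 they numbered 12.

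Of 26 lipoprotein and carrier proteins, 3 fell and 2 rose, shares near those of all tested genes, and the median of −0.22 was 0.076 with library size alone, where 1 fell and 4 rose. Apoa4, an apolipoprotein, rose by 1.97 and fetuin A (Ahsg) by 0.61, while Apoc1 fell by 0.65 and hepatic lipase (Lipc) by 0.94. The falls became 0 without control replicate 1, 1 without control replicate 3 or hAAM replicate 1 or 2, and 6 without hAAM replicate 3. In the growth hormone and IGF1 axis 7 of 20 genes fell and 0 rose (median −0.44, or 6 falls, 2 rises and −0.14 with library size alone). Bcl6, a repressor in this axis, was at 63.6 to 94.2 CPM in control and 11.6 to 17.1 CPM in treated livers (log2 fold change −2.46, SE 0.18, FDR 2.8e-05), and all 4 treated livers were within a narrow range. Socs2, a feedback inhibitor of the receptor, fell by 1.60. Without control replicate 1 its log2 fold change was −0.97 and it was not called, and the call was also lost without hAAM replicate 1 or 2. The count of 7 was 4 without control replicate 1 or hAAM replicate 1 or 2.

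Many DNA replication genes rose in the treated livers, most in replicates 1 and 2. Of 43 genes of replication and nucleotide supply, 24 rose and 1 fell (median 0.87, or 40 rises, 1 fall and 1.19 with library size alone), and the mean change was 1.39 and 1.12 in hAAM replicates 1 and 2, 0.27 in replicate 3 and 0.69 in replicate 4. Mcm6 (ENSMUSG00000026355, chr1:128331590-128359664), a subunit of the replicative helicase, was at 6.75, 7.09 and 5.53 CPM in control livers and at 36.02, 29.2, 10.8 and 18.0 CPM in the treated livers. The groups did not overlap, and the log2 fold change was 1.86 (SE 0.37, FDR 0.0060). Uhrf1, which maintains DNA methylation at the fork, rose by 2.13. E2f8, an atypical E2F repressor, was the 1 fall, from 23.4 to 37.8 CPM in control to 5.07 to 7.73 CPM in treated livers (log2 fold change −2.36, FDR 5.7e-04). The count of 24 was 6 without control replicate 3, 10 without control replicate 1, 11 without hAAM replicate 1 and 12 without hAAM replicate 2 or control replicate 2. RefSeq promoters were found for 36 of the 43 genes. An E2F motif (TTTCCCGC, TTTGGCGC or TTTCGCGC, either strand, where matches may overlap) was in 15 of the 36 (41.7%, 9 of 21 called higher with an entry) and in 457 of the 12786 tested genes with an entry (3.57%). The promoters of Mcm6 (chr1:128359656-128359955, minus strand, 3 matches of which a pair overlap) and Cdc6 (chr11:98907901-98908200, plus strand, 1 match) are shown as those of the most changed called members with 1 entry and a match, with the matches in capitals. Cdc6, named after its values were seen, loads the helicase at origins, and was at 0.494 to 0.582 CPM in control and at 5.18, 4.30, 0.813 and 1.62 CPM in the treated livers.
Mcm6: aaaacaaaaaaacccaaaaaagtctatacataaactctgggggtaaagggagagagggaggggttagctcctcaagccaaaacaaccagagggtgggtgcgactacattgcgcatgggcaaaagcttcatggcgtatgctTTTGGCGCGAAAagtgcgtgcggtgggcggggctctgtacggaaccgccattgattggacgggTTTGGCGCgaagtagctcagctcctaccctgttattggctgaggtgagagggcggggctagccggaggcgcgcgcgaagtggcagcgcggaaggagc
Cdc6: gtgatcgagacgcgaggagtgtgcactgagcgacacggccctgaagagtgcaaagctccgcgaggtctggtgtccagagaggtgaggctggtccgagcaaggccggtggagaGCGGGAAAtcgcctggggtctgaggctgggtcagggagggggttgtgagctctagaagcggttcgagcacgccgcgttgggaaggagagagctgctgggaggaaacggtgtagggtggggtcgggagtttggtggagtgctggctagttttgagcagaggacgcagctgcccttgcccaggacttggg

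Of 42 genes of mitosis and the spindle, 4 rose, a share near the 10.7% of all tested genes called higher, and 0 fell (Bub1b, Ttk, Kif20b and Foxm1, named after their values were seen), although the median was 1.02 and 23 were higher at an unadjusted p under 0.05, as were 18.5% of all tested genes. With library size alone 23 rose. Mki67, the proliferation marker, was at 14.3, 10.96 and 9.94 CPM in control livers and at 46.0, 25.8, 11.8 and 13.2 CPM in the treated livers. Replicates 1 and 2 were above control and replicates 3 and 4 inside its range (log2 fold change 1.04, FDR 0.19). The count of 4 became 0 without any 1 control liver or hAAM replicate 1 or 2, 2 without vehicle replicate 1, 2 or 3, and 16 without hAAM replicate 3. DESeq2 called 14. Of 14 G1 cyclins and entry genes, 3 rose (Cdk6 by 0.73, Rbl1 by 1.06 and Myc by 1.41), against 7 with DESeq2 and 12 with library size alone. The 3 rises became 9 without hAAM replicate 3, 6 without hAAM replicate 4 and 1 without hAAM replicate 2 or control replicate 3. Targets of p53, which halt the cycle or drive apoptosis, rose in 11 and fell in 1 of 27 (median 0.44). Cdkn1a, the p21 inhibitor of cyclin kinases, was at 33.0, 15.3 and 12.5 CPM in control livers and at 64.5, 70.5, 53.6 and 42.8 CPM in the treated livers (log2 fold change 1.51, FDR 0.0070), and the death receptor Fas was the fall, at 22.5 to 29.1 CPM and 9.27 to 10.9 CPM. The rises numbered 6 or 7 without any 1 control liver or hAAM replicate 1 or 2.

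Ribosomal protein genes rose in 19 of 77 and fell in 0 (median 0.23). Rpl12 was at 84.9 to 103 CPM in control and 122 to 145 CPM in treated livers (log2 fold change 0.53), and Rpl3 rose by 0.49. Rps2, the most abundant of the list, overlapped between the groups (log2 fold change 0.0017). The count of 19 was 2 without control replicate 3, 6 without hAAM replicate 1 or 2, 8 without control replicate 2 and 34 without hAAM replicate 4. DESeq2 called 37, and library size alone 73.

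Heat-shock chaperones fell in part. Of 20 heat-shock chaperones, 11 fell and 0 rose (median −0.57), with mean changes of −0.52, −0.17, −0.83 and −0.42 in hAAM replicates 1 to 4. Bag3, a co-chaperone of protein quality control, was at 64.4 to 75.2 CPM in control and 29.0 to 46.8 CPM in treated livers (log2 fold change −0.87, SE 0.13, FDR 0.0014), and Hspb8 fell by 0.93. The constitutive chaperone Hspa8 overlapped between the groups. The count was 6 without any 1 control liver or hAAM replicate 1, 7 without hAAM replicate 4, and with library size alone 2 rose and 2 fell. Of 32 genes of the unfolded protein and integrated stress responses, 10 fell and 3 rose (median −0.42). Psat1, a serine synthesis enzyme induced through ATF4, was at 0.672 to 1.78 CPM in control livers and at 12.8, 9.02, 4.20 and 9.05 CPM in the treated livers (log2 fold change 2.78, FDR 0.0018). Hyou1, a chaperone of the endoplasmic reticulum, was at 579 to 836 CPM in control livers and at 418, 380, 204 and 356 CPM in the treated livers (log2 fold change −1.06), and Creld2, a secretory pathway chaperone, fell by 1.339. For both, replicate 3 was the lowest treated liver. The count of 10 was 6 without control replicate 2, and library size alone gave 4 rises and 3 falls. RefSeq promoters were found for 29 of the 32. The endoplasmic reticulum stress element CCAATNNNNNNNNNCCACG, on either strand, was in 7 of the 29 (24.1%, 2 of the 8 called lower with an entry) and in 22 of 12786 tested genes (0.172%). The promoter of Creld2 (chr15:88819396-88819695, plus strand) is shown as that of the most reduced called member with 1 entry and a match, with the match in capitals.
Creld2: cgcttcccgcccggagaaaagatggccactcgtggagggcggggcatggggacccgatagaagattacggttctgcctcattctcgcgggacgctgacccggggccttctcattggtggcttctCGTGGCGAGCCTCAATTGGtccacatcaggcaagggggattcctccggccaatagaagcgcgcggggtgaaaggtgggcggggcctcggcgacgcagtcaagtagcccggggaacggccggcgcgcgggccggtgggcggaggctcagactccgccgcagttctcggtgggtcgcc

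Of the 6 immediate-early genes called, 1 (Atf3) was called in each of the 12 fits without 1 liver. The calls of the others and those of Tnfaip3 and Nfkbia depended on single livers, control replicate 1 among them for some. Of 28 AP-1 and immediate-early genes, 5 rose and 1 fell (median 0.61), or 9 and 0 with library size alone. Atf3, a stress-induced repressor, was at 5.95, 2.56 and 1.98 CPM in control livers and at 10.7, 11.8, 33.4 and 8.76 CPM in the treated livers (log2 fold change 2.21, FDR 0.0092), and Klf6 rose by 1.40. Control replicate 1 had a mean change of 1.09 in this list from the control mean, as high as the treated livers, which were at 0.42 to 1.13. Without it 9 genes rose, without control replicate 2 or hAAM replicate 1 3 rose, and without control replicate 3 1 rose. Tnfaip3, an NF-kappaB feedback inhibitor, was at 250, 40.3 and 12.5 CPM in control livers and at 9.56 to 15.8 CPM in the treated livers, and its log2 fold change of −3.07 was −1.14 without control replicate 1 and no longer called. Nfkbia moved from −1.51 to −0.31 and Fosl2 from −0.95 to −0.25 in the same setting, and neither was called there. Nfkbia also lost its call without any 1 of the 4 hAAM-treated livers, and Fosl2 kept its call only without control replicate 2 or 3. Irf1, an interferon-responsive factor, moved from −2.36 to −0.96 and stayed called (FDR 0.0022). Of 20 clock genes, 7 rose and 2 fell (median 0.18). The deubiquitinase Usp2 rose by 1.67 and Per3 by 1.41, while the repressor Nfil3 was at 71.0 to 106 CPM in control and 19.4 to 37.5 CPM in treated livers (log2 fold change −1.67, FDR 0.0014). The time of day of collection was not given in the sources used here. Of 37 proteasome subunits, 4 fell and 1 rose, shares near or below those of all tested genes (Psmd4 by −0.33, Psmd11 by −0.30, Psmd8 by 0.46), and the median of −0.081 was 0.22 with library size alone, where 7 rose and 0 fell. The 4 falls were 1 without control replicate 1 or 3.

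Annexin, S100 and cytoskeleton genes rose in part, again most in replicates 1 and 2. Of 20 annexins and S100 proteins, calcium-binding proteins that rise in injured epithelium, 10 rose and 0 fell (median 0.66), and all 10 were called in each of the 12 fits without 1 liver. Anxa2 (ENSMUSG00000032231, chr9:69453620-69491795), a membrane-linked annexin, was at 13.8, 10.2 and 8.26 CPM in control livers and at 176, 145, 32.5 and 72.4 CPM in the treated livers (log2 fold change 3.31, SE 0.52, FDR 0.0021). S100a6 rose by 3.37 and S100a11 by 2.61, and in both replicate 3 was the lowest treated liver and above every control. Of 35 genes of actin, tubulin and keratin, 18 rose and 1 fell (median 0.77), with mean changes of 1.29, 1.15, 0.067 and 0.55 in hAAM replicates 1 to 4. Acta2, smooth muscle actin of activated stellate cells, was at 2.19 to 6.17 CPM in control livers and at 63.7, 54.0, 10.7 and 19.6 CPM in the treated livers (log2 fold change 2.95, FDR 0.0073). Vimentin (Vim) rose by 2.37 and thymosin beta 10 (Tmsb10) by 2.17. The count of 18 was 6 without control replicate 3, 8 without hAAM replicate 1 or 2, 9 without control replicate 1 and 10 without control replicate 2.

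Matrix genes followed the same order of livers. Of 35 collagens and matrix genes, 15 rose and 0 fell (median 1.28, with 26 rises with library size alone), and the mean change was 1.78 and 1.67 in hAAM replicates 1 and 2 and 0.53 and 0.66 in replicates 3 and 4. Col1a1, the main fibrillar collagen chain, was at 50.2, 39.7 and 15.4 CPM in control livers and at 388, 307, 82.8 and 95.6 CPM in the treated livers (log2 fold change 2.64, FDR 0.016). Fn1, fibronectin, which hepatocytes secrete into plasma, overlapped between the groups. The count of 15 was 3 without control replicate 3, 5 without hAAM replicate 1 or 2 and 7 without control replicate 2. Of 20 matrix metalloproteinases and inhibitors, 8 rose and 1 fell (median 1.20, 5 rises without hAAM replicate 2 or control replicate 3). Of 22 stellate cell and fibroblast markers, 8 rose and 0 fell (median 0.28), a count that was 2 without control replicate 3, 4 without hAAM replicate 1 or 2 and 5 without control replicate 2.

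Markers of recruited macrophages were raised in all 4 treated livers, while with TMM factors the median of resident Kupffer cell markers was near 0. Of 22 markers of recruited monocytes and macrophages, 14 rose and 2 fell (median 2.10), with 11 to 17 rises when 1 liver was left out. The falls were Fabp5, a fatty acid binding protein that is not particular to macrophages, and haptoglobin, which hepatocytes make in bulk. Fabp5 was named after its value was seen. The mean change was 2.35, 2.38, 1.55 and 1.33 in hAAM replicates 1 to 4, and the controls were at −0.27 to 0.23. Of 16 Kupffer cell markers, 3 rose and 1 fell (median 0.016), against 5 and 0 (median 0.32) with library size alone. The rises were Marco, Clec1b and Cdh5, the last an endothelial cadherin, and the fall was Id3, which was called in 2 of the 12 fits without 1 liver. Clec1b was named after its value was seen. Clec4f and Timd4, defining Kupffer cell markers added after their values were seen, were at 64.2 to 90.1 and 5.96 to 6.88 CPM in control and 44.0 to 82.8 and 4.74 to 7.73 CPM in treated livers, overlapping in both. The scavenger receptor Marco rose by 1.48 (17.7 to 21.8 CPM in control and 41.1 to 76.6 CPM in treated livers). The 3 rises among Kupffer cell markers were 1 without any 1 control liver, hAAM replicate 1 or vehicle replicate 1 or 2. Of 36 lysosome and phagosome genes, 14 rose and 0 fell (median 0.28, with 25 rises and a median of 0.58 with library size alone, 8 rises without control replicate 3 and 9 without hAAM replicate 1). Cd68 (ENSMUSG00000018774, chr11:69664213-69666153), a lysosomal glycoprotein of macrophages, was at 8.54, 10.1 and 9.84 CPM in control livers and at 49.3, 47.6, 33.0 and 32.1 CPM in the treated livers (log2 fold change 2.10, SE 0.20, FDR 1.3e-04). Of 29 genes of efferocytosis, the uptake of dying cells, 13 rose and 2 fell (median 0.50, 9 to 16 rises when 1 liver was left out). Trem2, a lipid-sensing receptor of phagocytes, was at 0.858 to 1.30 CPM in control livers and at 10.9, 10.1, 8.68 and 4.59 CPM in the treated livers (log2 fold change 2.94, FDR 8.3e-04). Gas6, the bridge between phosphatidylserine and the MER and AXL receptors, was at 66.2, 183 and 174 CPM in control and 32.1 to 39.8 CPM in treated livers and fell by 1.95. Of 17 genes of alternative macrophage activation, 4 rose and 0 fell (median 0.40), and 8 rose with library size alone.

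More chemokines fell than rose with TMM factors, and no neutrophil marker passed the test. Of 25 CC and CXC chemokines, 6 fell and 1 rose (4 fell and 3 rose with library size alone), and the median of −0.29 was 0.085 with library size alone. Cxcl1, a neutrophil attractant, was at 356, 193 and 173 CPM in control and 49.3 to 64.6 CPM in treated livers (log2 fold change −2.10, FDR 0.0011), and Ccl6, a macrophage chemokine, rose by 1.63. Control replicate 1 had a mean change of 1.08 in this list from the control mean, and the 6 falls were 3 without hAAM replicate 1 or 2. Of 13 neutrophil markers 0 passed the test in either direction with edgeR, 0 had an unadjusted p under 0.05, and 0 rose with DESeq2, while the median was 0.88 (1.16 with library size alone). Their mean change was 1.26 in hAAM replicate 1 and higher still in replicate 2, against −0.14 and 0.015 in replicates 3 and 4 and −0.83 to 0.82 in control livers. S100a8 and S100a9, the calprotectin chains added after their values were seen, were at 0.593 to 4.14 and 1.44 to 7.11 CPM in control and 1.27 to 4.65 and 1.30 to 4.89 CPM in treated livers. Without control replicate 1, 2 neutrophil markers rose. Of 38 interferon-stimulated genes, 9 fell and 2 rose (median 0.054), while with library size alone 3 fell and 8 rose (median 0.38), with the antiviral Rsad2 at 1.58 and the GTPase Iigp1 at −0.65, and 4 fell without control replicate 1 and 5 without hAAM replicate 1. Of 26 genes of the inflammasome and the IL-1 and TNF families, 4 rose and 4 fell (median −0.33), against 6 and 3 (median −0.023) with library size alone. Tnfrsf12a, the TWEAK receptor of injured epithelium, was at 4.29 to 4.78 CPM in control livers and at 27.0, 26.2, 5.44 and 17.5 CPM in the treated livers (log2 fold change 2.07), and the IL-1 receptor Il1r1 fell by 1.32. The rises numbered 1 without hAAM replicate 1 or control replicate 2 or 3, and 2 without hAAM replicate 2 or vehicle replicate 2.

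**Figure D2:**
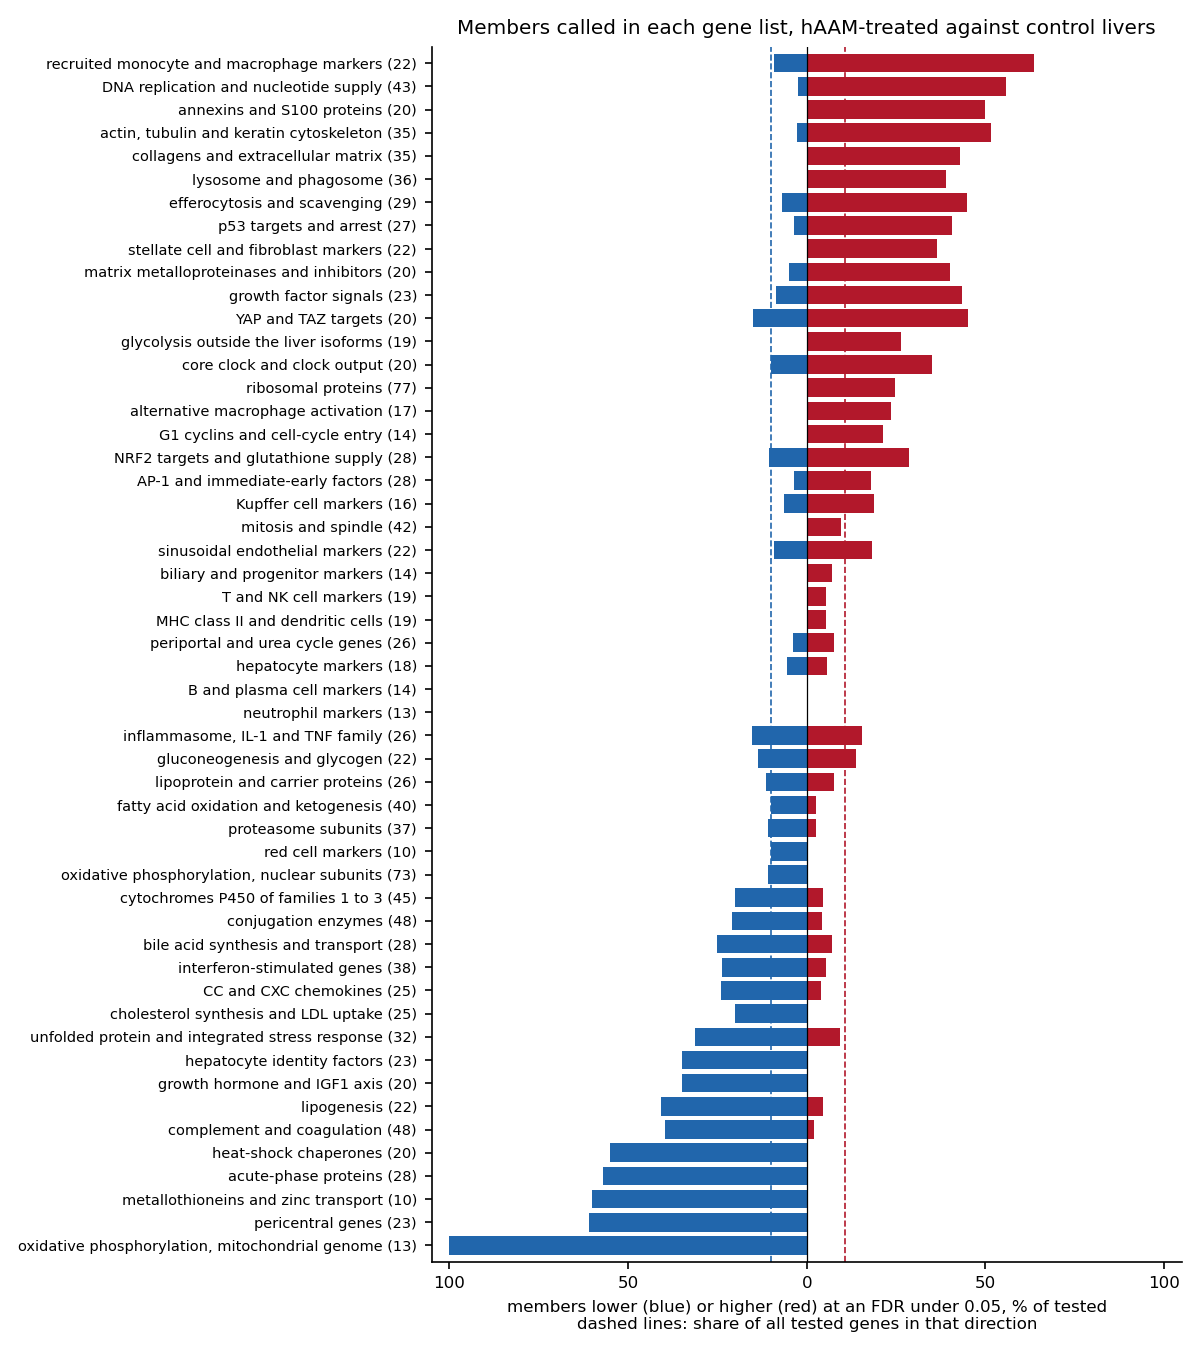
Share of the tested members of each gene list called lower (left) or higher (right) in hAAM-treated than in control livers at an FDR under 0.05, in %, with dashed lines at the share of all tested genes (9.96% lower, 10.7% higher). All 13 mitochondrial genome genes and 14 of 23 pericentral genes are on the lower side, and 14 of 22 recruited macrophage markers and 24 of 43 replication genes on the higher side.

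The 4 treated livers differed in how far they stood from control, and not only in single genes. Over the called genes, the median change in log2 CPM of those called higher was 1.17, 1.08, 0.66 and 0.72 in hAAM replicates 1 to 4, and of those called lower −0.64, −0.66, −0.49 and −0.51. hAAM replicate 3 was the treated liver nearest to control for 43.3% of the called genes and replicate 4 for 33.4%, against 10.9% and 12.3% for replicates 1 and 2. Replicate 1 was the farthest for 43.0%. Since calling used these livers, these shares describe them and are no test. A treated liver was inside the control range, or outside it on the side opposite to the call, for 1.03%, 0.922%, 4.69% and 2.06% of the called genes in replicates 1 to 4. Over the 9161 more abundant genes (mean log2 CPM 3 or higher), the median SD between livers was 0.154 in hAAM-treated, 0.118 in control and 0.122 in vehicle-treated livers. The mean changes of lists varied between vehicle-treated livers too. For P450 genes the SD was 0.77 in hAAM-treated and 0.53 in vehicle-treated livers, for mitosis genes 0.69 and 0.64, and for lipogenesis genes 0.47 and 0.59.

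**Figure D3:**
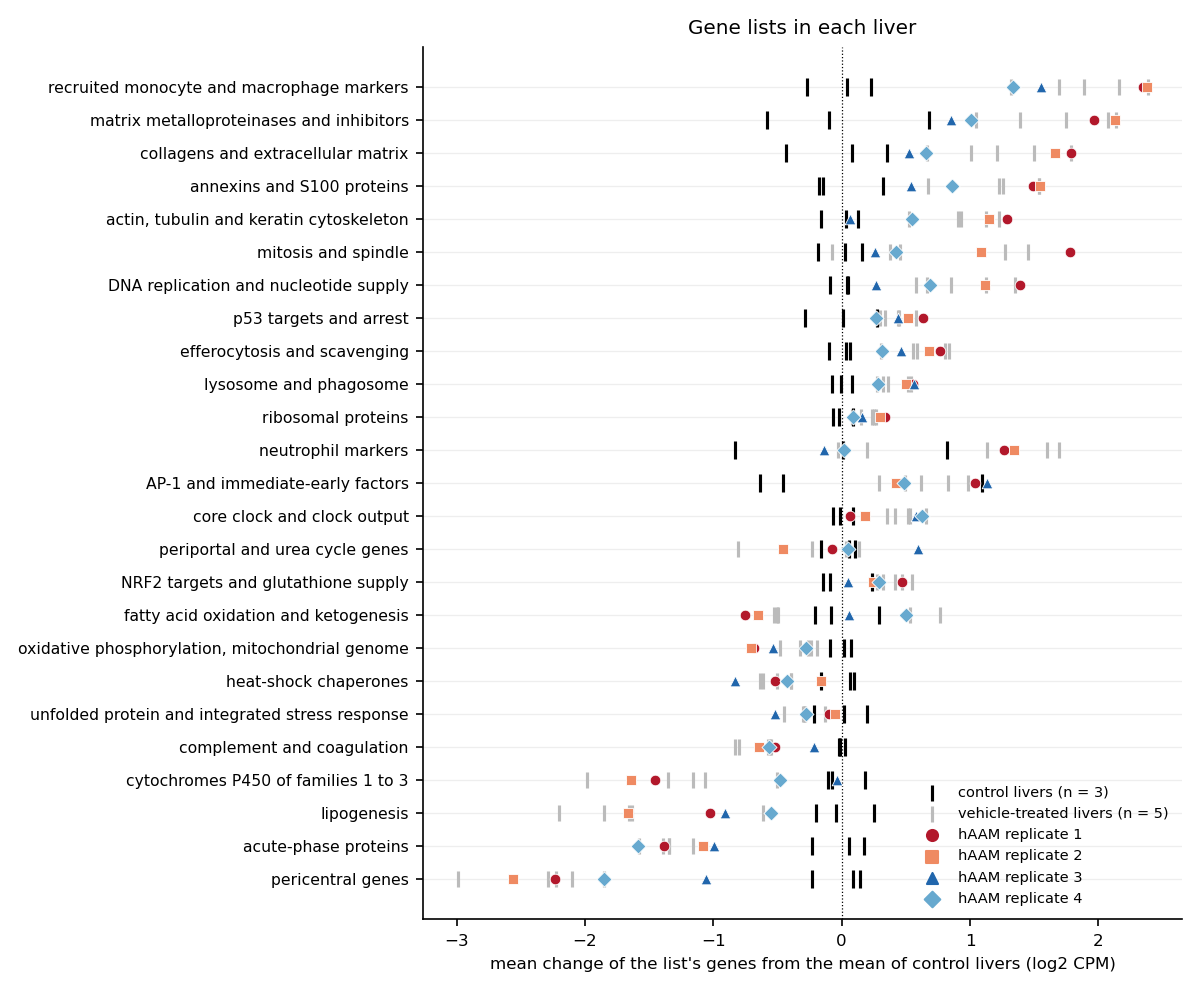
Mean change in log2 CPM from the control mean over the members of 25 gene lists, with 1 mark for each control (black), vehicle-treated (grey) and hAAM-treated (coloured) liver. hAAM replicates 1 and 2 are farthest from control in lists such as mitosis (1.78 and 1.09, against 0.26 and 0.42) and P450 (−1.45 and −1.64, against −0.037 and −0.48), while acute-phase proteins are at −0.99 to −1.59 in all 4.

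The livers did not keep 1 order in every list. For acute-phase proteins replicate 4 was the farthest from control (−1.59), for heat-shock chaperones replicate 3 (−0.83 against −0.17 in replicate 2), and for clock genes replicates 4 and 3 (0.62 and 0.58 against 0.063 in replicate 1). For DNA replication, collagens, cytoskeleton and annexins, replicates 1 and 2 were the highest and replicate 3 the lowest. For pericentral genes the mean change was −2.23, −2.56, −1.06 and −1.85, so replicate 3 was the nearest to control and still below all controls (−0.23 to 0.14).

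Among protein-coding genes whose log2 CPM averaged 3 or more in the treated livers, those that varied most between these livers were P450 enzymes, immediate-early factors and a few others. With edgeR 0 of the 10 was called (FDR 0.061 to 0.98). A wide spread between these livers was the ground of choice and itself makes a call unlikely, so this count is no result about the genes. Cyp2c29 (ENSMUSG00000003053, chr19:39269405-39330713), a pericentral P450, was at 780, 589 and 537 CPM in control livers and at 10.8, 10.1, 240 and 117 CPM in the treated livers, an SD of 2.35 in log2 CPM. The P450 genes Cyp2c37 (3.69, 4.54, 48.6 and 18.6 CPM), Cyp3a11 (136, 107, 1369 and 470 CPM) and Cyp2a5 (5.45, 4.89, 78.6 and 26.7 CPM) had a like order, with replicate 3 highest and replicates 1 and 2 lowest. For Cyp2a5 replicate 3 was above the control range of 56.9 to 62.9 CPM, and for Cyp3a11 it was inside the range of 614 to 1644 CPM. Cyp4a14 and Cyp4a10, fatty acid hydroxylases induced through PPARA, were highest in replicate 4, at 796 and 299 CPM, against 11.7 to 41.0 and 26.7 to 34.2 CPM in control livers. Replicate 3 followed at 222 and 129 CPM, and replicates 1 and 2 were at 25.7 to 47.6 CPM, near control. The immediate-early genes Nr4a1 and Fos were highest in replicate 3, at 117 and 163 CPM against 3.72 to 9.72 and 9.70 to 36.7 CPM in the other treated livers. Lars2, a mitochondrial leucyl-tRNA synthetase, ranged from 21.2 to 390 CPM and Tff3, a mucosal repair peptide, from 2.76 to 37.2 CPM, with replicate 3 highest for both. The control livers ranged from 95.4 to 136 CPM for Lars2 and 4.73 to 35.3 CPM for Tff3.

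**Figure D4:**
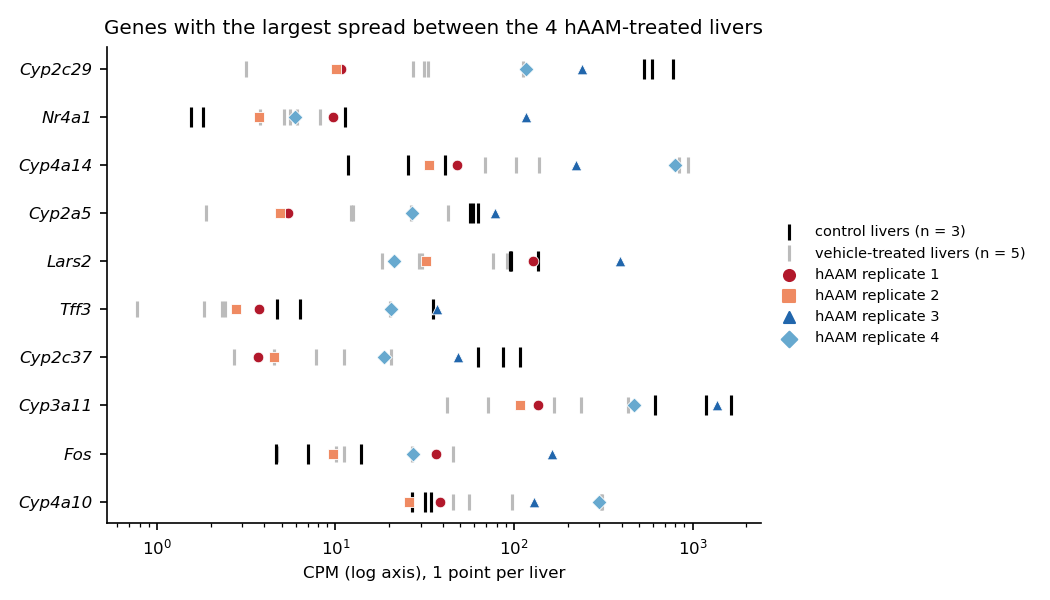
CPM on a log axis in each control, hAAM-treated and vehicle-treated liver for the 10 protein-coding genes that varied most between hAAM-treated livers, among those with a mean log2 CPM of 3 or more there. Slc1a2 was below that level. hAAM replicate 3 is at 240 CPM for Cyp2c29 and 117 CPM for Nr4a1, the highest of the 4 treated livers, and replicate 4 is highest for Cyp4a14 at 796 CPM.

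Beside the hAAM-treated livers, the vehicle-treated livers give the change of APAP without cells. Against the same 3 controls, 6719 genes (29.8%) were called in vehicle-treated livers, which are 5 in number and so give the test more power. Of the 22581 genes tested, 3380 were called higher and 3339 lower there, against 2418 and 2248 in hAAM-treated livers. Each pair of list counts is to be read against these totals, since more genes of any kind were called in vehicle-treated livers. The list counts stood as follows side by side, with hAAM-treated livers given first. Pericentral genes fell in 14 and 17 of 23 (median −1.44 and −1.93), P450 genes in 9 and 22 of 45 (−0.75 and −1.02), complement genes in 19 and 31 of 48 (−0.51 and −0.77) and nuclear respiratory chain subunits in 8 and 32 of 73 (−0.19 and −0.30). Replication genes rose in 24 and 28 of 43 (0.87 and 0.86) and recruited macrophage markers in 14 and 15 of 22 (2.10 and 2.09). The acute-phase proteins fell in 16 and 15 of 28 (−0.90 and −0.82). For single genes, Glul changed by −4.17 and −4.28, Saa3 by −5.06 and −5.82, Chil3 by 5.45 and 5.67 and Cyp2e1 by −1.64 and −2.37.

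Compared directly, 0 genes (0%) differed between hAAM-treated and vehicle-treated livers at an FDR under 0.05 with edgeR, where the smallest FDR was 0.792, and 1133 (5.02%) had an unadjusted p under 0.05. That count was 1776 without vehicle replicate 3, the near-copy of hAAM replicate 4, and 717 without vehicle replicate 5. DESeq2 called 1, the transcriptional co-regulator Trim24 (log2 fold change −0.59), and edgeR called 1 without vehicle replicate 3, Nudt7, a peroxisomal coenzyme A hydrolase (log2 fold change 1.63), both named after their values were seen. The 5.02% is about what a threshold of 0.05 gives when nothing differs. Of the 52 lists, those with 4 or more members past it in 1 direction are named here, a count that long lists reach more easily. Pericentral genes (of 23) and complement genes (of 48) each had 5 higher with hAAMs than with vehicle and 0 lower. Conjugation enzymes (of 48) and gluconeogenesis and glycogen genes (of 22) each had 4 higher and 0 lower. Mitochondrial genome genes (of 13) and YAP and TAZ targets (of 20) each had 4 lower and 0 higher. Clock genes (of 20) had 5 higher and 7 lower. The genes called against control with the smallest p between the treatments were low in abundance except Herc3. Herc3, a ubiquitin ligase, was at 6.50 to 7.58 CPM in control, 10.96 to 11.9 CPM in hAAM-treated and 13.2 to 21.3 CPM in vehicle-treated livers. The dioxygenase-like gene Hpdl was at 0.0198 to 0.0572, 0.111 to 0.227 and 0.296 to 0.488 CPM in the same groups. The pseudogenes Gm7631, Gm13722 and Gm11295 were below 1 CPM in each of these livers. A p that misses the threshold does not show that the treatments act alike. For Glul the direct difference was 0.11 (SE 0.22) on the log2 scale.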

How the data were processed

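RNA of 12 mouse livers (3 control, 5 vehicle-treated, 4 hAAM-treated) was sequenced after rRNA depletion with a directional kit. The deposited values are raw read counts per Ensembl gene, made by the authors with cutadapt 4.6, STAR 2.7.1a on GRCm38 and summarizeOverlaps. The counting mode and use of strand are not given in the sources used here, so overlapping and near-identical genes are uncertain. The table held genes with a total of at least 15 counts. No count column was left unmapped. Symbols and coordinates were those of GENCODE M21 for 24128 genes, and 59 had no entry.

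Counts were analysed with edgeR 4.0.16 (R 4.3.3) using TMM factors, filterByExpr by group and the quasi-likelihood F test without robust estimation. All 12 livers were fitted together with group as the only term, and calls were two-sided at a Benjamini-Hochberg FDR under 0.05. CPM used TMM-scaled library sizes, and log2 CPM a prior count of 2. The change of a list in a liver is the mean over its members of log2 CPM minus the control mean. The procedure was tested on simulated data. Total counts were 47391650 or more in each of the 7 livers, and the common biological coefficient of variation was 0.214.

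The comparison, the 52 gene lists and the tests were chosen with earlier results of these data known. Named genes were the 10 largest rises and 10 largest falls (protein-coding, called, mean log2 CPM 2 or more, no overlap), in each list up to 3 called members with the largest change and the most abundant one, the 10 protein-coding genes most variable between treated livers (mean log2 CPM 3 or more in these livers), and the 5 called genes with the smallest p against vehicle. Others are named as chosen after their values were seen. Alternatives were DESeq2 1.42.0, other scaling, filters, thresholds and samples, robust estimation, a replicate block and leaving out each liver. A few genes that this rule names are not reported here.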

Additional observations from a re-analysis of the deposited data

Results flagged for a closer look

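Of 243 gene lists and named genes examined over the 4 hAAM-treated livers, 3 had a liver farther from the other 3 than Dixon's critical value allows (1.23%). That value is set for about 1 in 20 independent items. These items share livers and members, and many genes were chosen on these data, so the 1.23% cannot be judged against it. Socs2, a feedback inhibitor of growth hormone signalling, was at a log2 CPM of 3.846 in hAAM replicate 3 and at 2.64 to 2.818 in the others. The ribosomal protein gene Rpl3 was at 7.781 in hAAM replicate 4 and at 7.94 to 7.97 in the others. The haemoglobin gene Hba-a1, which has a near-identical copy, was at 6.277 in hAAM replicate 4 and at 7.93 to 8.161 in the others.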

How the results depend on the processing

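The 4666 calls between hAAM-treated and control livers (2418 higher, 2248 lower) became 7340 (6559 and 781) with library size alone, 2729 (1409 and 1320) with only the 7 livers fitted, 1543 (690 and 853) at an FDR of 0.01 and 559 (304 and 255) against a fold change of 1.5. Leaving out each liver gave 2419 to 5456 calls, 1112 to 2905 higher and 1307 to 2551 lower, with the lowest counts without control replicate 3 and the highest without hAAM replicate 3. The cause was not tested. DESeq2, its size factors, other filters and robust estimation kept these counts within 1.5 times. DESeq2 called 5815 genes, 4630 of them among the 4666. With only the 7 livers fitted, 9 collagens and matrix genes rose in place of 15, 6 p53 targets in place of 11 and 3 growth factor genes in place of 10. Annexins and S100 proteins kept 10 rises, and recruited macrophage markers had 12 in place of 14. Between hAAM-treated and vehicle-treated livers the count was 1 with DESeq2 and 0 to 1 with 1 liver left out. Psmd11 reversed to a log2 fold change of 0.0051 with library size alone.

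With the replicate block 2959 genes were called (1560 higher, 1399 lower). The labels do not say whether same-numbered livers were handled together. Same-numbered control and treated livers had correlations of deviations of 0.003, 0.106 and 0.061. Treated replicates 2 and 3 correlated best with their own number, and replicate 1 with control replicate 2 (0.110). Deviations from the mean of so few livers depend on each other, so these values cannot decide whether the livers are paired.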

Other observations

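Glycolytic genes outside the liver isoforms rose in 5 of 19 and fell in 0 (median log2 fold change 0.22, or 11 rises and 0.53 with library size alone, and 3 rises without control replicate 2 or 3), with the muscle-type pyruvate kinase Pkm at 2.36 and the glucose transporter Slc2a1 at 1.11. Gluconeogenesis and glycogen genes rose in 3 and fell in 3 of 22 (median 0.0012, or 4 and 1 and 0.28 with library size alone), and the rises were 5 without control replicate 1 and 1 without control replicate 2. Of 23 growth factor genes, 10 rose and 2 fell (median 0.38). The EGF receptor ligand Hbegf rose by 2.13 and the receptor Egfr fell by 1.26, and the rises were 3 or 4 without any 1 control liver or hAAM replicate 1 or 2. Of 20 YAP and TAZ targets, 9 rose and 3 fell (median 0.34, or 14 and 2 with library size alone), with the matricellular gene Ccn2 at 2.58 and the rises at 3 to 5 without any 1 control liver or hAAM replicate 1 or 2.

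Among markers of other cell types, sinusoidal endothelial markers rose in 4 and fell in 2 of 22 (median 0.13), or rose in 10 and fell in 0 with library size alone. With TMM factors the number of rises was 0 without control replicate 1, 1 without control replicate 3 or hAAM replicate 2, and 2 without control replicate 2 or hAAM replicate 1. T and NK cell markers rose in 1 of 19 (Il7r, 2.76), MHC class II and dendritic cell genes in 1 of 19 (Itgax, 1.93, with 3 rises without control replicate 2) and biliary markers in 1 of 14 (Cldn4, 2.03, not called without control replicate 1 or 2 or hAAM replicate 1 or 2), all below the 10.7% of all tested genes called higher. With library size alone these lists had 3, 6 and 4 rises. B and plasma cell markers had 0 of 14 called by edgeR and 0 called higher by DESeq2, with 1 at an unadjusted p under 0.05. Of 10 red cell markers 0 rose and 1 fell with edgeR, but the median was 1.72 and 5 were higher at an unadjusted p under 0.05, as were 18.5% of all tested genes. With library size alone 5 rose, and in vehicle-treated livers 5 were called higher, as were 3380 of all 22581 tested genes. Their mean change was 1.27, 1.11, 1.63 and 0.32 in hAAM replicates 1 to 4. The haemoglobin gene Hba-a1 was at 21.6 to 62.1 CPM in control and 77.5 to 286 CPM in treated livers (log2 fold change 2.21, FDR 0.069), without overlap. Alas2, the first enzyme of haem synthesis in erythroid cells, fell by 1.27. Hbegf, Il7r and Cldn4 were named after their values were seen.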
